A study of Homo sapiens with 132 samples.

Results

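The response of MKN1 cells to 4 h cetuximab treatment was taken from 6 of the 132 RNA sequencing libraries of the series, 3 of treated and 3 of untreated cells. The libraries were chosen by their labels alone (cell line MKN1, time 4 h, cetuximab or untreated, and not EGF + cetuximab), and each treated library was paired with the untreated library of the same replicate number. MKN1 is an established human gastric cancer cell line that was derived from a metastasis. The cells were grown in RPMI medium with serum, received fresh medium shortly before treatment, and were either left untreated or treated with 1 μg/ml cetuximab, with no EGF added in either group. For comparison, other MKN1 cells received 5 ng/ml EGF, EGF + cetuximab, 5 μg/ml trastuzumab or 0.5 μM afatinib for 4 h, or cetuximab for 24 h, and Hs746T cells, another gastric cancer cell line, were treated with cetuximab for 4 h. Cetuximab was compared with untreated cells, and a treatment with antibody solvent was not analysed here. The solvent of afatinib was DMSO, and no library of DMSO-treated cells was analysed. An effect of DMSO therefore cannot be told apart from that of afatinib. Every group held 3 libraries. Each cell line is a single line, so the p-values below measure only the spread among libraries of these lines. That spread is what remains once differences between replicate numbers are taken out. Nothing in the labels says whether the replicates were separate cultures.

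Cetuximab is a monoclonal antibody that binds the extracellular part of the epidermal growth factor receptor (EGFR) and keeps its ligands from binding. An active EGFR signals through RAS, RAF, MEK and the MAP kinases ERK1 and ERK2 and through PI3K and AKT. ERK phosphorylates transcription factors that switch on the immediate early genes within minutes (the EGR, FOS and JUN families and MYC), and later genes follow, among them inhibitors that feed back on the pathway (the DUSP phosphatases and the Sprouty proteins) and EGFR ligands that feed forward. Many of these transcripts decay quickly.

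Between 39005311 and 55291592 reads were counted on genes in each of the 6 libraries. At these depths 3 counts, taken as the smallest level a library can show, correspond to between 0.0543 and 0.0769 CPM (counts scaled to a common library size), which covers counting error only. The keratins KRT8, KRT18, KRT19 and KRT7 made up most of the summed level of 11 epithelial markers, which was between 19950 and 21772 CPM in untreated and between 19115 and 21158 CPM in treated cells. The 20 gastric and intestinal markers were low in this gastric line, at between 82.5 and 89.9 CPM in untreated and between 77.9 and 84.2 CPM in treated cells, and 5 of them (TFF3, GKN1, GKN2, LIPF and SOX2) stayed below 0.1 CPM. Of 12 immune markers, whose sum was between 4.56 and 5.32 CPM in untreated and between 4.97 and 6.63 CPM in treated cells, 6 were below 0.1 CPM in all 6 libraries, among them CD3E, CD3D, MS4A1 and CD68, which were listed at 0. CD14 was at 2.95 to 4.31 CPM, ITGAM at 0.721 to 1.14 CPM and CSF1R at 0.579 to 0.872 CPM, each with overlapping groups, and the pan-leukocyte marker PTPRC was at 0 to 0.0465 CPM in untreated and at 0.102 to 0.16 CPM in treated cells (adjusted p = 0.0547, on at most 8 counts). Counts were 0 in all 42 MKN1 libraries for 2252 of 19674 protein-coding identifiers, and these included genes that dividing or adherent cells use, such as CDK2, BAK1, TIMP1, JUNB and DUSP1. For these genes only the listed 0 can be given. The sums of 13 mesenchymal markers (1140 to 1998 CPM in untreated, 1035 to 2005 CPM in treated cells), 10 squamous markers (815 to 1138 and 798 to 1083 CPM) and 7 endothelial markers (11.1 to 18.6 and 10.4 to 16.1 CPM) overlapped between the groups. These sums rest on a few abundant genes such as FN1, VIM and KRT17. Single members fell by adjusted p alone, namely the mesenchymal factors ZEB1 (log2FC -0.43, adjusted p = 0.000173) and SNAI2 (-0.61, adjusted p = 0.000932), the squamous marker SERPINB5 (-0.58, adjusted p = 9.78e-06) and the gastric and intestinal factor GATA6 (-0.35, adjusted p = 0.0124), and the epithelial factor ELF3 rose (0.42). The part of other cell types or states in the results was not tested. Levels of RNA in whole cultures cannot tell apart fewer cells expressing a gene and less RNA per cell.

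After 4 h cetuximab treatment, 116 of 19815 tested genes (0.585%) were regulated, 73 lower (0.368%) and 43 higher (0.217%) than in untreated cells. A gene was called regulated at an adjusted p below 0.05 and an absolute log2FC (log2 of the ratio of treated to untreated) above 1. Without the limit on the log2FC, 934 genes were lower (4.71%) and 553 higher (2.79%). These shares over all tested genes are the background for the counts in the gene lists below. Among genes with a mean log2 CPM above 1, the largest falls were those of the transcription factor EGR1, the inhibitors SPRY4 and DUSP6, PHLDA1, the focal adhesion protein TNS4, the EGFR ligand AREG, the transcript AC018629.1, the chemokine CXCL8 and the EGFR ligand EREG, in this order. Of the 73 lower genes, 7 were not protein coding (9.59%, against 26.1% of all tested genes) and 14 had a mean log2 CPM below 0 (19.2%, against 30.6%). Among them MALT1 (log2FC -2.2), CHAT, CCR7, NWD1 and FGF19 were lower at means between 0.224 and 0.556 CPM in untreated cells. These falls rest on few reads. MALT1 and NWD1 had at most 17 counts in a library and CCR7 at most 14. The mean of MALT1 in treated cells, 0.0478 CPM, was below the level of 3 counts. In 12 of the 73 lower genes the highest count in any of the 6 libraries was below 50. Of the 43 higher genes, 22 were not protein coding (51.2%), 35 had a mean log2 CPM below 0 (81.4%), and only VAV3, CXCR4, RNF144B and BMF had a mean log2 CPM above 1.

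**Figure D1:**
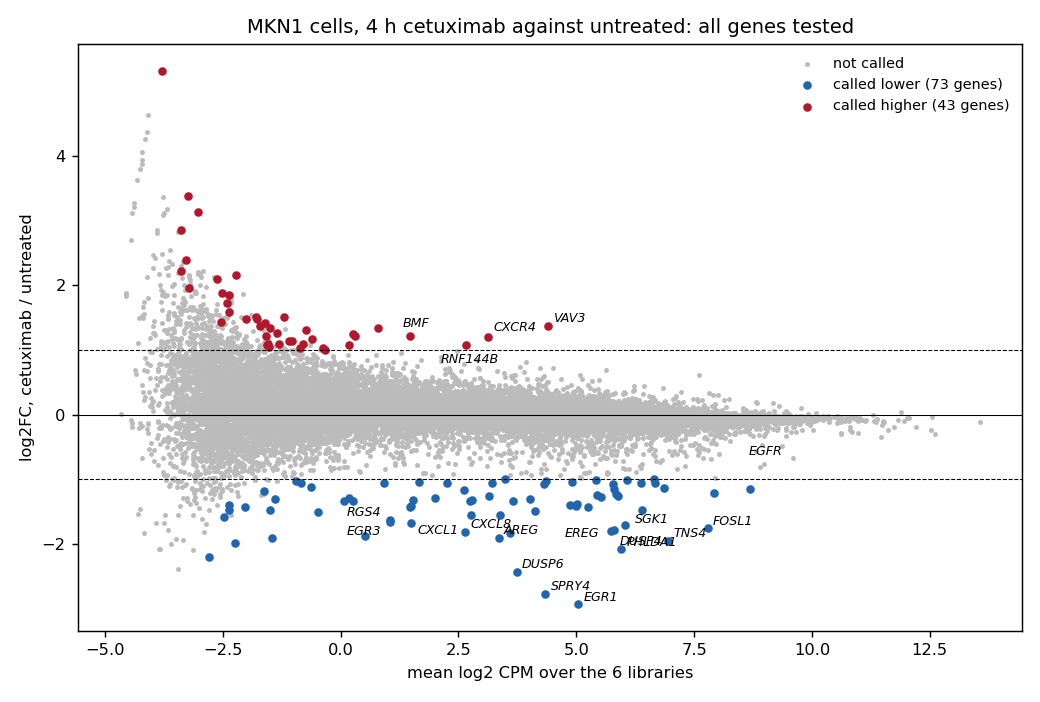
Each point is one of 19815 genes, with its mean log2 CPM over the 6 libraries on the x axis and the log2FC of cetuximab against untreated MKN1 cells after 4 h on the y axis; dashed lines mark a log2FC of 1 and -1. The 73 genes called lower (blue) reach well into the highly expressed genes, and 39 of the 43 called higher (red) lie at a mean log2 CPM of 1 or below.

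All 116 regulated genes changed in the same direction in the 3 pairs of libraries. In 68 of the 73 lower genes all treated libraries were below all untreated libraries, which held for 7.12% of all tested genes, and in 41 of the 43 higher genes all treated libraries were above, which held for 7.76%. Both sets were called on these same libraries, so the selection itself favours such agreement. The pairs differed in size. The median log2 difference of the lower genes was -1.25 in pair 1, -1.15 in pair 2 and -1.56 in pair 3, and pair 3 showed the largest fall in 60 of the 73 genes. Without replicate 3, 65 genes were regulated (50 lower, 15 higher). Without the pairing of replicates 66 genes were regulated (51 lower, 15 higher), and when 10 counts were required in every library, 67 genes (56 lower, 11 higher). Scaled by library size alone, 57 genes were lower and 60 higher, so that the excess of falls over rises among regulated genes depended on the TMM scaling. A further 29 genes passed the adjusted p with an absolute log2FC between 0.9 and 1, among them CYR61, HBEGF, DUSP10, BIRC3 and DUSP2.

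The ERBB receptors had log2FC values between -0.29 and 0.29, and none reached the limit of 1 in edgeR or DESeq2 (2 of 4 had an unadjusted p below 0.05). EGFR (ENSG00000146648, chr7:55019021-55211628), the target of cetuximab, was at 492, 407 and 443 CPM in untreated replicates 1 to 3 and at 434, 334 and 335 CPM after cetuximab treatment. Each treated library was below its untreated partner, while the groups overlapped, and the fall of EGFR was small (log2FC -0.29, SE 0.08, adjusted p = 0.0275). ERBB2, the target of trastuzumab, was at 114, 157 and 131 CPM in untreated and at 119, 152 and 134 CPM in treated cells, with overlapping groups (log2FC 0.01, SE 0.14, adjusted p = 0.981). ERBB3 had a log2FC of 0.29 (SE 0.11, adjusted p = 0.115) at 4.31 ± 0.917 CPM in untreated cells, and ERBB4 one of 0.14 (SE 0.32, adjusted p = 0.879) at 0.832 ± 0.277 CPM (mean ± SD, n = 3). Of 28 other tested receptor tyrosine kinases, 1 was regulated. EPHA2, an ephrin receptor, fell from 617 ± 17.1 to 279 ± 38.4 CPM (log2FC -1.15, SE 0.12, adjusted p = 7.06e-08). By adjusted p alone 5 more fell, among them MET, the receptor of hepatocyte growth factor (log2FC -0.48, adjusted p = 0.0357), and ROR1 (log2FC -0.80, adjusted p = 2.37e-07).

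The list of immediate early genes, most of them transcription factors, fell as a group. Of 24 tested members, 9 were regulated, all of them lower, against 0.368% of all tested genes. By adjusted p 19 fell, including those 9, against 4.71% of all tested genes. The median log2FC of the list was -0.60, against 0.01 over all genes tested. EGR1 (ENSG00000120738, chr5:138465490-138469315), a zinc finger factor, was at 97.5, 53.9 and 136 CPM in the untreated and at 9.91, 14.3 and 12.4 CPM in the treated libraries. All 3 treated libraries lay far below the lowest untreated library, although the untreated libraries differed among themselves, and EGR1 had the most negative log2FC of the 73 genes (log2FC -2.93, SE 0.30, adjusted p = 2.84e-08). Its relatives EGR2, EGR3 and EGR4 also fell, by 1.9, 1.66 and 1.33 on the log2 scale, from low levels of 0.655 ± 0.227, 3.66 ± 1.04 and 1.64 ± 0.424 CPM (mean ± SD, n = 3). EGR2 lost its call under 6 of the alternatives in which it was tested, including the fit without the replicate block (-1.89, adjusted p = 0.109) and the fits without replicate 1 (-1.72, adjusted p = 0.118), 2 (-2.51, adjusted p = 0.0691) or 3 (-1.56, adjusted p = 0.34). With 4 counts in its lowest library, EGR2 was not tested where 10 counts were required in every library. EGR3 (-1.5, adjusted p = 0.0593) and EGR4 (-0.98, adjusted p = 0.0673) lost theirs without replicate 3. FOSL1 (ENSG00000175592, chr11:65892049-65900573), a subunit of the AP-1 factor, was at 421, 413 and 387 CPM in untreated and at 131, 149 and 87.7 CPM in treated cells, which kept the groups well apart (log2FC -1.76, SE 0.25, adjusted p = 6.24e-06). MYC, which drives growth and ribosome synthesis, fell from 52.2 ± 5.24 to 20.2 ± 6.63 CPM (log2FC -1.41, SE 0.15, adjusted p = 8.36e-08), MAFF by 1.4, IER3 by 1.5 and FOS by 1.06 on the log2 scale. Without replicate 1 (log2FC -0.96, adjusted p = 0.00447) or replicate 3 (-0.93, adjusted p = 9.8e-05) FOS was below the limit of 1. By adjusted p alone, JUN (log2FC -0.56), IER2 (-0.59), IER5 (-0.56), KLF2 (-0.68), KLF6 (-0.62), KLF10 (-0.50), BHLHE40 (-0.84), KLF4 (-0.31), SRF (-0.28) and FOSL2 (-0.17) fell. In the separate list of 15 KLF factors, which shares some of these, none was regulated (edgeR listed 9 at an unadjusted p below 0.05 and DESeq2 called 0). The nuclear receptors NR4A1, NR4A2 and NR4A3 did not pass, with log2FC values of -0.32, 0.40 and -0.04, nor did ATF3 (-0.12) and JUND (0.17). Among the 20 tested ETS factors, ETV5 was regulated (log2FC -1.02, SE 0.14, adjusted p = 4.05e-06; without replicate 1 -0.95, adjusted p = 0.000193), ETS1 (log2FC -0.80, SE 0.08, adjusted p = 3.67e-08), ETV1 (-0.59) and ELK3 (-0.51) fell by adjusted p alone, and the epithelial factor ELF3 rose slightly (log2FC 0.42, SE 0.08, adjusted p = 0.00105).

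The promoters of EGR1, AREG and CXCL8 are shown because these genes fell most among the transcription factors, the ligands and the chemokines, and because each holds letters that match a motif searched. The sequences are the 250 bases before the annotated start in RefSeq (GRCh38.p14), 5′ to 3′ on the strand of the gene: EGR1 at chr5:138465229-138465478, plus strand, AREG at chr4:74444886-74445135, plus strand and CXCL8 at chr4:73740319-73740568, plus strand.
EGR1: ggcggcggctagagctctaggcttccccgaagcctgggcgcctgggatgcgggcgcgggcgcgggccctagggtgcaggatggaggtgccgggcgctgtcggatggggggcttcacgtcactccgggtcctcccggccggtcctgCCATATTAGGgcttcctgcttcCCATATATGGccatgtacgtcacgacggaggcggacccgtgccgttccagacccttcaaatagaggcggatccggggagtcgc
AREG: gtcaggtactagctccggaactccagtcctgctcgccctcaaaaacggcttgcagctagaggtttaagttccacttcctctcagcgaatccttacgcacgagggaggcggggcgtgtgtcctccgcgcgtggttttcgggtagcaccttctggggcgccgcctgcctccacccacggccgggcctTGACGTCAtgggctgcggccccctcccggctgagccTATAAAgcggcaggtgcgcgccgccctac
CXCL8: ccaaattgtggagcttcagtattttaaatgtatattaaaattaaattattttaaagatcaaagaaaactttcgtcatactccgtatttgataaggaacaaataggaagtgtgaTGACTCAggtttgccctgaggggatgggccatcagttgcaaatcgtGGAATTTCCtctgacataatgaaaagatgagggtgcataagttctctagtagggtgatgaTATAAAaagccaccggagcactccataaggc
Capitals mark the motifs found. In EGR1 they are 2 CArG boxes, the binding motif of serum response factor, in AREG a CRE (TGACGTCA) and a TATAAA, and in CXCL8 an AP-1 motif (TGAGTCA, read here from the opposite strand), an NF-kB motif (GGAATTTCC) and a TATAAA, none of them overlapping. Promoters were found in RefSeq for 47 of the 73 lower genes and 20 of the 43 higher genes. Searched on both strands, TGAGTCA was in 7 of the 47 (14.9%), in 3 of the 20 (15%) and in 4.2% of 35116 promoters of the same length, TGACGTCA in 4 (8.51%), 0 and 1.65%, GGAATTTCC in 3 (6.38%), 0 and 0.413%, TATAAA in 11 (23.4%), 4 (20%) and 10.7%, and a CArG box in 1 (2.13%), 0 and 1.16%. These matches describe letters in these windows, and binding was not measured.

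The feedback inhibitors of the MAP kinase pathway fell with the transcription factors. SPRY4 (ENSG00000187678, chr5:142310427-142326455), a Sprouty protein that restrains receptor tyrosine kinase signaling upstream of ERK, was at 52.3, 46.7 and 62 CPM in untreated and at 6.82, 10.1 and 6.65 CPM in treated cells. The treated libraries were all below the untreated ones by several fold, and the fall of SPRY4 was the second in size (log2FC -2.77, SE 0.29, adjusted p = 3.09e-08). Of the 7 tested Sprouty and SPRED genes, SPRY4, SPRY1 (log2FC -1.05) and SPRY2 (log2FC -1.0) were regulated, SPRED1 (-0.90) and SPRED2 (-0.89) fell by adjusted p alone, and SPRY3 (0.01) and SPRED3 (0.06) did not pass. SPRY2 lay at the limit and lost its call under 7 of 11 alternatives (without the replicate block -0.99, adjusted p = 6.87e-05; without replicate 1 -0.87, adjusted p = 0.000753; without replicate 3 -0.91, adjusted p = 0.00156), and SPRY1 lost its call without the replicate block (-1.04, adjusted p = 0.0566). The antisense gene SPRY4-AS1, which overlaps SPRY4 on the other strand, fell by 1.29 on the log2 scale. The libraries were directional, but whether the counting used the strand is not given in the sources used here, so reads of these overlapping genes may have been mixed.

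Among the 11 tested DUSP phosphatases, DUSP6, DUSP4 and DUSP5 were regulated and lower (DUSP5 log2FC -1.07; without replicate 3 -0.92, adjusted p = 0.0174), and the median log2FC was -0.82. By adjusted p 6 fell, including these regulated genes, and 2 rose. DUSP6 (ENSG00000139318, chr12:89347232-89353271), which removes the activating phosphates from ERK in the cytoplasm, was at 28, 24.3 and 42.5 CPM in the untreated libraries and at 4.66, 6.94 and 5.75 CPM in the treated ones. The highest treated library held less than the lowest untreated library by a wide gap (log2FC -2.43, SE 0.29, adjusted p = 4.67e-07). DUSP4 (ENSG00000120875), its nuclear relative, was at 104, 104 and 105 CPM in untreated and at 26, 42.2 and 24.1 CPM in treated cells. The untreated libraries were nearly equal, treated replicate 2 kept more than the other 2, and the groups stayed apart (log2FC -1.79, SE 0.19, adjusted p = 5.51e-08). DUSP10 (log2FC -0.93), DUSP2 (-0.90) and DUSP7 (-0.82) fell by adjusted p alone, DUSP8 (0.25, adjusted p = 0.0313) and DUSP16 (0.33, adjusted p = 0.0281) rose slightly, and DUSP3, DUSP9 and DUSP14 did not pass. At the receptor, ERRFI1, which binds and inhibits the EGFR kinase, fell from 67.2 ± 5.2 to 28.7 ± 6.17 CPM (log2FC -1.24, SE 0.19, adjusted p = 1.98e-05), while LRIG1, LRIG2, LRIG3, CBL, CBLB and CBLC did not pass. PHLDA1 (ENSG00000139289, chr12:76025447-76033932), a small protein with a pleckstrin homology-like domain, was at 129, 106 and 151 CPM in untreated and at 25.4, 37.4 and 27.9 CPM in treated cells, with groups apart (log2FC -2.08, SE 0.24, adjusted p = 1.92e-07). In a list of 10 genes that serves as a readout of MAP kinase activity, 9 were tested and 7 were regulated, all lower (SPRY2, SPRY4, ETV5, DUSP4, DUSP6, EPHA2 and PHLDA1). The cyclin CCND1 fell by adjusted p alone (log2FC -0.67, SE 0.16, adjusted p = 0.00517), EPHA4 did not pass (-0.15), and the median log2FC of this list was -1.15.

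**Figure D2:**
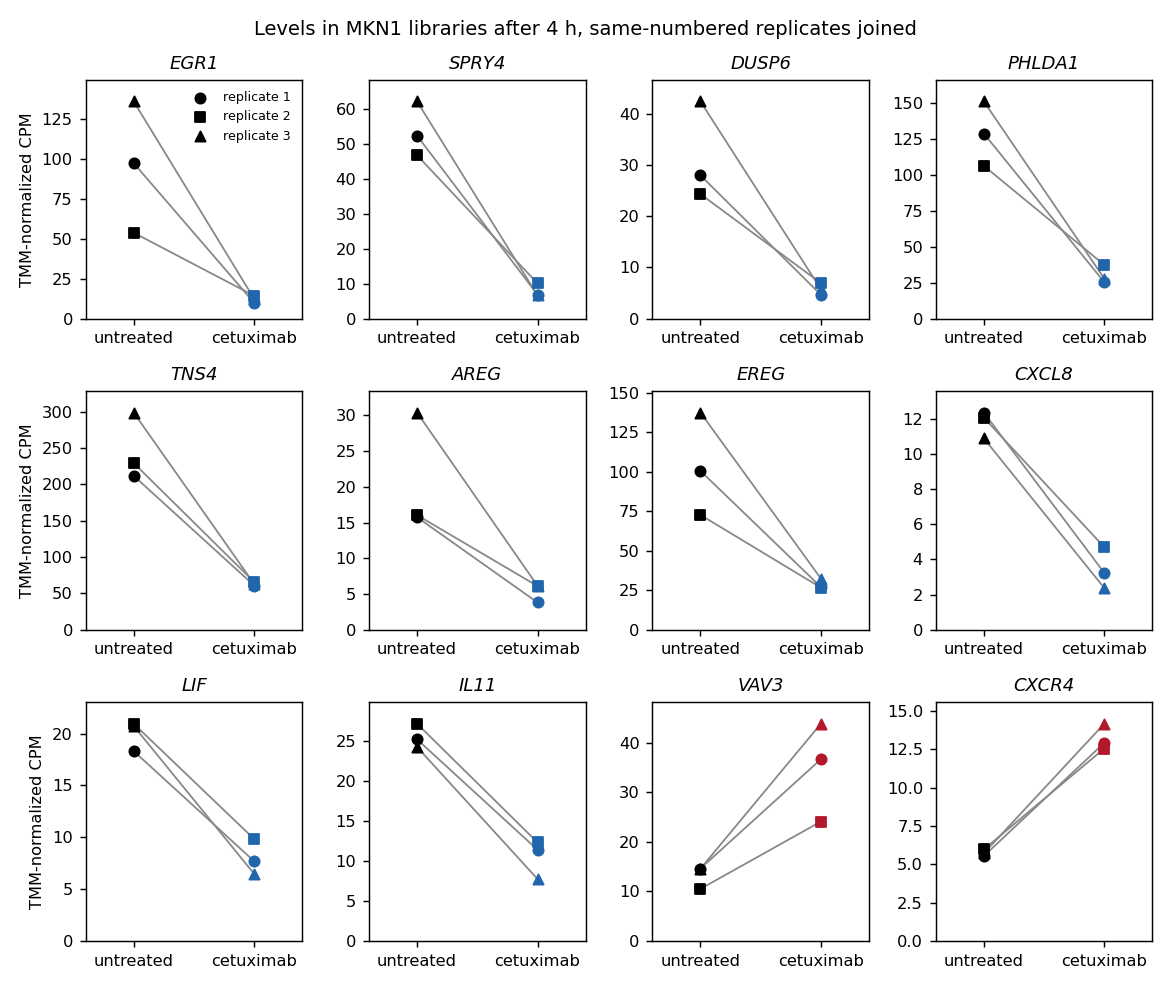
TMM-normalized CPM of 12 genes (linear y axes from 0) in the 3 untreated (black) and the 3 cetuximab-treated libraries (blue for falls, red for rises) of MKN1 cells after 4 h; lines join libraries with the same replicate number. In each of the 12 genes all 3 lines run in the same direction and the groups do not overlap.

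The EGFR ligands AREG, EREG, TGFA and HBEGF were lower after cetuximab treatment, and 2 of the 11 tested ligands and neuregulins were regulated. AREG (amphiregulin, ENSG00000109321, chr4:74445134-74455009) was at 15.7, 16 and 30.4 CPM in untreated and at 3.82, 6.12 and 6.16 CPM in treated cells. Untreated replicate 3 was well above the other 2, and all treated libraries were lower (log2FC -1.91, SE 0.21, adjusted p = 1e-07). EREG (epiregulin, ENSG00000124882, chr4:74365143-74388751), whose gene is separated from AREG by 56383 bases, was at 100.4, 72.6 and 137 CPM in untreated and at 27, 26.6 and 32.4 CPM in treated cells, and untreated replicate 3 was again the highest (log2FC -1.81, SE 0.24, adjusted p = 2.97e-06). TGFA (log2FC -0.74, adjusted p = 9.45e-09) and HBEGF (log2FC -0.98, adjusted p = 0.00374) fell by adjusted p alone. EGF itself was listed at 0.715 ± 0.207 CPM in untreated and 0.884 ± 0.171 CPM in treated cells and did not pass (adjusted p = 0.507), nor did BTC (-0.18), NRG1 (0.58), NRG2 (0.07), NRG4 (0.26), EPGN (0.01, on at most 5 counts) and NRG3 (2.13, adjusted p = 0.169, on at most 48 counts). The median log2FC of the 11 was 0.01, and that of all genes tested 0.01.

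Chemokines and cytokines were the next group. CXCL8 (interleukin 8, ENSG00000169429, chr4:73740506-73743716), which attracts neutrophils, was at 12.3, 12 and 10.9 CPM in untreated and at 3.23, 4.7 and 2.37 CPM in treated cells. The untreated libraries were close together and all treated libraries lay far below them (log2FC -1.82, SE 0.15, adjusted p = 7.3e-10). Its neighbour CXCL1 (ENSG00000163739, chr4:73869393-73871242), with the same kind of function, was at 5.35, 6.1 and 3.75 CPM in untreated and 1.28, 2.41 and 1.14 CPM in treated cells, without overlap (log2FC -1.68, SE 0.21, adjusted p = 1.29e-06). CXCL1 has near-identical relatives, so reads may have been shared among them, and CXCL2 (-0.69), CXCL3 (-0.09), CXCL5 (-0.73) and CXCL6 (-0.97) had negative log2FC values that did not pass. CCL2, which attracts monocytes, fell from 6.97 ± 1.72 to 3.38 ± 1.03 CPM (log2FC -1.06, SE 0.13, adjusted p = 8.27e-07), a call that was lost without the replicate block (-1.05, adjusted p = 0.0806). Of the 12 tested chemokines, 3 were thus regulated and lower, and CCL28 rose by adjusted p alone (log2FC 0.34). Of the 54 tested cytokines and receptors, 3 were lower and 1, CXCR4, was higher. IL11 (ENSG00000095752, chr19:55364389-55370463) and LIF (ENSG00000128342, chr22:30240447-30246851), cytokines that signal through the shared receptor gp130, were at 25.2, 27.1 and 24.2 CPM and at 18.3, 20.9 and 20.7 CPM in untreated cells. After treatment IL11 was at 11.4, 12.3 and 7.73 CPM and LIF at 7.68, 9.82 and 6.47 CPM, below every untreated library, with log2FC values of -1.31 (SE 0.13, adjusted p = 2e-08) and -1.33 (SE 0.12, adjusted p = 4.72e-09). CSF2, the growth factor GM-CSF, fell from 2.73 ± 0.599 to 0.751 ± 0.362 CPM (log2FC -1.88, SE 0.28, adjusted p = 2.02e-05). By adjusted p alone, 12 more fell, among them OSMR, IL4R, IL1RAP, IL6ST, IL7R, TNFRSF1A and TNFRSF1B, with log2FC values between -0.54 and -0.28, and ACKR3 (0.32), IL22RA1 (0.56) and IL15 (0.41) rose. No NF-kB subunit or feedback gene of the 19 tested reached the limit on the log2FC (edgeR listed 11 at an unadjusted p below 0.05 and DESeq2 called 0), but 9 fell by adjusted p alone, the most BIRC3, an inhibitor of apoptosis (log2FC -0.91, SE 0.07, adjusted p = 1.02e-10), and the median was -0.23. Prostaglandin genes had no regulated member among 12 (edgeR listed 5 at an unadjusted p below 0.05 and DESeq2 called 0), and by adjusted p alone the receptor PTGER4 (-0.93) and the synthase PTGS2 (-0.75) fell and the prostacyclin synthase PTGIS rose (0.33, adjusted p = 0.0359).

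Genes of adhesion, the clotting proteases and the matrix formed another group of falls, with 5 of 37 tested members regulated and lower (all tested genes: 0.368%). By adjusted p 11 were lower, including those 5 (all tested genes: 4.71%), and 2 were higher. TNS4 (ENSG00000131746, chr17:40475828-40501597), a tensin of focal adhesions that lacks the actin-binding part of its relatives, was at 212, 229 and 299 CPM in untreated and at 60.9, 65.8 and 63 CPM in treated cells. The treated libraries were nearly equal and far below the untreated ones (log2FC -1.95, SE 0.22, adjusted p = 2.12e-07), while TNS3 rose slightly (log2FC 0.31, SE 0.06, adjusted p = 0.00115) and TNS1 (0.10) and TNS2 (0.07) did not pass. The transcript AC018629.1 (log2FC -1.83), whose gene lies 539 bases from TNS4 on the same strand, and AC004585.1 (log2FC -1.42), whose gene lies 15429 bases from its other end, fell too, and whether their reads are separate from those of TNS4 was not tested. ITGA2, the collagen-binding integrin subunit, was at 64.9, 67.4 and 129 CPM in untreated and at 34.3, 28.7 and 53.2 CPM in treated cells, and the groups did not overlap (log2FC -1.14, SE 0.15, adjusted p = 2.48e-06). Without the replicate block, ITGA2 lost its call (-1.16, adjusted p = 0.0999). F3 (tissue factor, ENSG00000117525, chr1:94529225-94541800), which starts the clotting cascade, was at 391, 392 and 329.8 CPM in untreated and at 171, 206 and 116 CPM in treated cells, so that the highest treated library stayed below the lowest untreated one (log2FC -1.21, SE 0.14, adjusted p = 1.92e-07). F2RL1, a receptor cleaved by such proteases, fell by 1.05 on the log2 scale (without replicate 3 -0.95, adjusted p = 1.44e-05). LAMA3 (log2FC -0.79), PLAUR (-0.64) and PLAT (-0.49) fell by adjusted p alone and MMP14 rose (0.51, adjusted p = 0.0191). FN1 (-0.04), TNC (-0.04), ITGB1 (-0.10) and MMP9 (-0.08) did not pass. Of 17 tested targets of the coactivator YAP, 3 were regulated and lower, CTGF from 89.8 ± 21.5 to 39.3 ± 13.5 CPM (log2FC -1.23, SE 0.16, adjusted p = 2.48e-06), ANKRD1 (log2FC -1.34, SE 0.16, adjusted p = 2.35e-07; without the replicate block -1.31, adjusted p = 0.0501) and F3, which is in both lists, and CYR61 fell just short of the limit (log2FC -0.98, SE 0.14, adjusted p = 6.15e-06).

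The remaining falls came from several functions. SGK1 (ENSG00000118515, chr6:134169246-134318112), a kinase that regulates ion transport and survival, was at 116, 118 and 124 CPM in untreated and at 31.5, 49.1 and 31.3 CPM in treated cells, without overlap (log2FC -1.71, SE 0.17, adjusted p = 2.31e-08). RGS4, which shortens signaling through G proteins, fell from 3.6 ± 0.581 to 1.17 ± 0.316 CPM (log2FC -1.63, SE 0.29, adjusted p = 0.000278). Transporters were represented by MFSD2A, which carries lysophospholipids (log2FC -1.55), and SLC20A1, a phosphate carrier (-1.14). NOG, a secreted BMP antagonist, fell by 1.55 on the log2 scale, the only regulated member of 18 tested ID and BMP genes, among which ID1 (-0.61), SMAD6 (-0.58) and GREM1 (-0.36) fell and ID2 (0.40) rose by adjusted p alone. HMGA2, a chromatin protein of fetal tissue and tumors, fell by 1.44, together with the pseudogene RPSAP52 that overlaps it on the other strand (-1.06). PTHLH, the parathyroid hormone-related hormone, fell by 1.25, the Notch target HES1 by 1.02, and MLPH, a melanosome transport protein, by 1.28 with an SE of 0.08.

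Several well expressed genes outside these lists also fell. ENC1, a kelch protein that binds actin, was at 153, 136 and 154 CPM in untreated and at 68.4, 81.3 and 62.6 CPM in treated cells. The groups did not overlap (log2FC -1.07, SE 0.13, adjusted p = 5.69e-07). AMIGO2, a cell adhesion protein, had a log2FC of -1.07, TMEM200A of -1.39, PHLDB2 of -1.06 and the forkhead factor FOXL1 of -1.17, all with groups apart. PHLDB2 and, among the ETS factors, ETV5 overlap PLCXD2 and DGKG on the same strand, so their counts are uncertain to that extent. GPR3, a receptor that raises cAMP even without added ligand, fell from 4.59 ± 0.353 to 1.84 ± 0.48 CPM (log2FC -1.32, SE 0.21, adjusted p = 4.53e-05). DHRS9, a dehydrogenase of retinoids and steroids, was at 0.755, 0.55 and 3.18 CPM in untreated and at 0.252, 0.28 and 0.941 CPM in treated cells. Its groups overlapped, untreated replicate 3 was far above the other 2, and every pair fell (log2FC -1.51, SE 0.29, adjusted p = 0.000544). With EGF its level was 10.1 ± 4.81 CPM, and with EGF + cetuximab 3.06 ± 2.04 CPM (log2FC -1.83, SE 0.19, adjusted p = 4.46e-08). Among the genes just short of the limit were the Notch ligand JAG1, CYP26B1, which degrades retinoic acid, and the toll-like receptor TLR4.

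**Figure D3:**
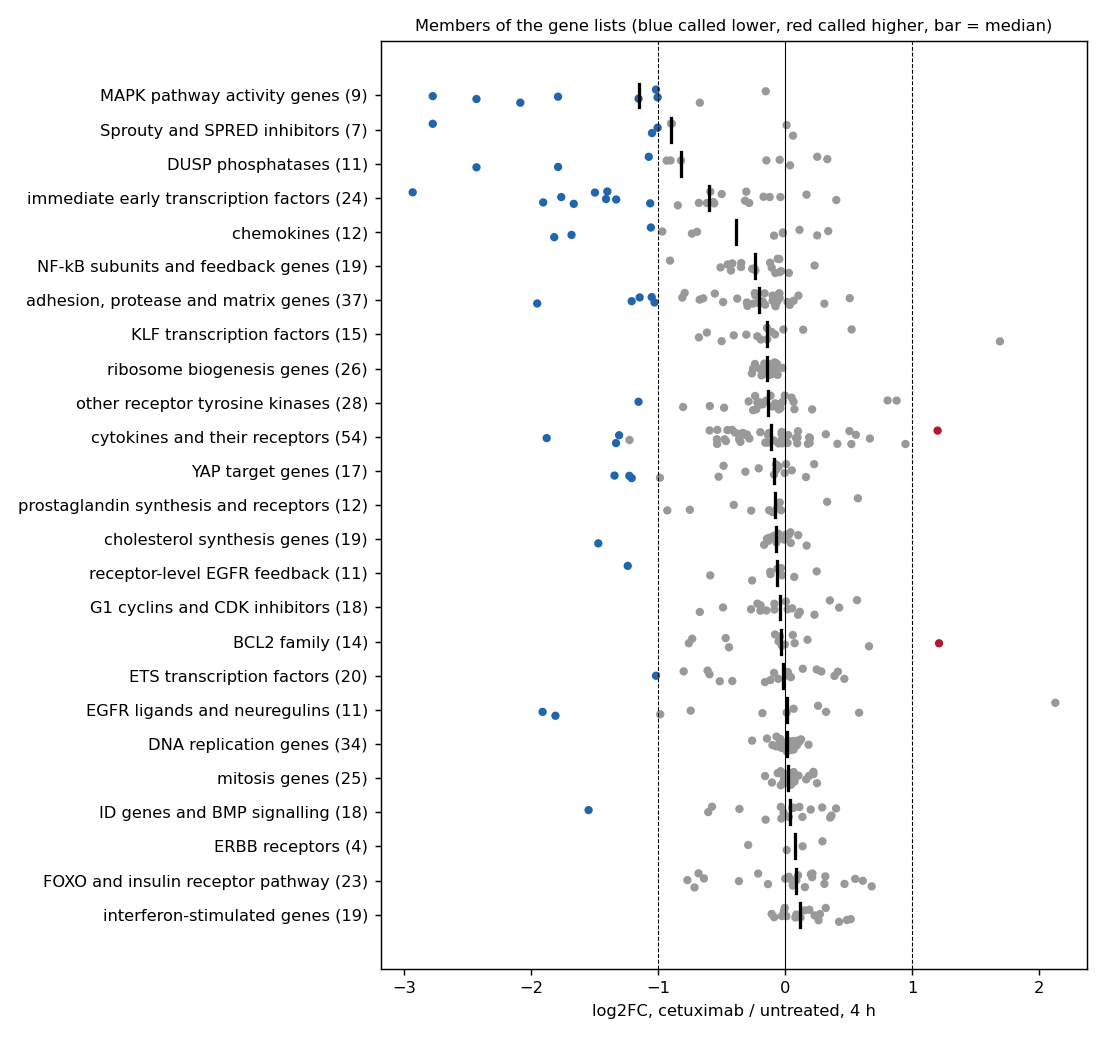
Log2FC of cetuximab against untreated MKN1 cells after 4 h (x axis) for the tested members of 25 gene lists (y axis, number tested in brackets), with the median as a bar and dashed lines at 1 and -1. The lists of the MAP kinase readout, the Sprouty genes, the DUSP genes and the immediate early genes have medians of -1.15, -0.90, -0.82 and -0.60, and the members of the DNA replication list all lie near 0.

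No gene of the DNA replication, mitosis or G1 lists was regulated after 4 h, against 0.585% of all tested genes. At so low a share, lists of this size can lack a called gene without differing from the other genes. By adjusted p, 2 of the 18 G1 genes were higher and 3 lower, against 2.79% and 4.71% of all tested genes. Of 34 tested DNA replication genes, 0 passed by adjusted p in edgeR and 1 did in DESeq2, and edgeR listed 1 at an unadjusted p below 0.05, RRM2 (adjusted p = 0.0682). Of 25 mitosis genes, 0 were regulated (edgeR listed 5 at an unadjusted p below 0.05 and DESeq2 called 0) and 3 rose slightly by adjusted p alone, KIF20A (0.22), NDC80 (0.22) and CDC25C (0.25). Among 18 G1 cyclins and CDK inhibitors, CCND1 was at 1118, 881 and 973 CPM in untreated and at 753, 580.2 and 543 CPM in treated cells, and the groups did not overlap. None of the 18 was regulated (edgeR listed 8 at an unadjusted p below 0.05 and DESeq2 called 0). CDKN1A, a CDK inhibitor, also fell by adjusted p alone (-0.49, adjusted p = 0.000127) and CDKN2C (0.35) and CDKN1C (0.43) rose. The 26 tested ribosome biogenesis genes all had negative log2FC values, between -0.26 and -0.02 with a median of -0.14, but none was regulated (edgeR listed 13 at an unadjusted p below 0.05 and DESeq2 called 0), and WDR43 alone passed by adjusted p (-0.25, adjusted p = 0.0196). In the BCL2 family, the survival genes MCL1 (log2FC -0.76, SE 0.07, adjusted p = 4.72e-09), BCL2L1 (-0.47) and BCL2 (-0.44) and the death gene PMAIP1 (-0.73) fell by adjusted p alone. Among 23 tested genes of FOXO and insulin signaling, 0 were regulated (edgeR listed 14 at an unadjusted p below 0.05 and DESeq2 called 0). By adjusted p alone 6 of the 23 fell and 4 rose, against 4.71% and 2.79% of all tested genes, and TRIB1 had the smallest adjusted p (2.12e-07). Among the others IRS1, an adaptor of the insulin receptor, fell (-0.68, adjusted p = 1.73e-05) and TXNIP, which limits glucose uptake, rose (0.68, adjusted p = 0.000123). Of 19 interferon-stimulated genes 0 were regulated (edgeR listed 5 at an unadjusted p below 0.05 and DESeq2 called 0), and OASL, STAT2 and IFI44 rose slightly by adjusted p alone.

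Of the 4 rises with clear expression, VAV3 (ENSG00000134215, chr1:107571160-107965144), a guanine nucleotide exchange factor, was at 14.6, 10.5 and 14.6 CPM in untreated and at 36.7, 24.1 and 43.8 CPM in treated cells. All treated libraries were above all untreated ones, and replicate 2 was the lowest in both groups (log2FC 1.37, SE 0.12, adjusted p = 1.3e-09). CXCR4 (ENSG00000121966, chr2:136114349-136118165), the receptor of the chemokine CXCL12, was at 5.54, 5.97 and 5.72 CPM in untreated and at 12.9, 12.6 and 14.2 CPM in treated cells, with little spread in either group (log2FC 1.2, SE 0.12, adjusted p = 2.51e-08). RNF144B (ENSG00000137393, chr6:18387350-18468874), an E3 ubiquitin ligase, was at 5.42, 3.92 and 3.72 CPM in untreated and 11.2, 6.96 and 9.73 CPM in treated cells (log2FC 1.08, SE 0.17, adjusted p = 4.15e-05). BMF (ENSG00000104081, chr15:40087890-40108892), a death protein of the BCL2 family with only a BH3 domain, was at 1.55, 2.02 and 1.86 CPM in untreated and at 3.84, 3.17 and 5.67 CPM in treated cells. Its groups were apart and all 3 pairs rose (log2FC 1.21, SE 0.32, adjusted p = 0.0164), but the call was lost without the replicate block (1.23, adjusted p = 0.0827) and without replicate 1 (1.16, adjusted p = 0.134), 2 (1.47, adjusted p = 0.0598) or 3 (0.98, adjusted p = 0.0344). RNF144B was not called without replicate 3 (0.94, adjusted p = 0.00166). The other 39 higher genes were measured on few reads. In 32 of the 43, the highest count in any of the 6 libraries was below 50, and the largest fitted log2FC, that of the long noncoding RNA AL445430.2, rested on a mean of 0.0981 CPM in treated cells, near the level of 3 counts. Among those at somewhat higher levels were EDN2 (endothelin 2; log2FC 1.33), the semaphorin SEMA6D (1.24) and the protocadherin PCDH18 (1.21), all of which rose.

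To ask whether cetuximab had the same effect when the ligand was supplied, EGF + cetuximab was compared with EGF in other libraries of the same time point. Here 65 genes were regulated (0.328%), 56 lower (0.283%) and 9 higher (0.0454%). Of the 73 genes lowered by cetuximab alone, 65 had a negative log2FC in this comparison, 24 fell by adjusted p (against 2.97% of all tested genes) and 6 were regulated, which is 8.22% of the 73 and 10.7% of the 56. Of the 43 genes raised by cetuximab alone, 33 had a positive log2FC and 0 passed by adjusted p (against 1.02%). EGR1, with the largest fall under cetuximab alone, was at 145 ± 24.7 CPM under EGF and at 109 ± 31.6 CPM under EGF + cetuximab (mean ± SD, n = 3), a log2FC of -0.43 that did not pass (adjusted p = 0.533). SPRY4 stood at 165 ± 10.7 and 135 ± 20.2 CPM, and TNS4 at 558 ± 41.9 and 532 ± 60.5 CPM, without passing. CCL2 fell from 26.8 ± 8.58 to 13 ± 3.1 CPM (log2FC -1.03, SE 0.11, adjusted p = 6.57e-08), ITGA2 from 325 ± 82.1 to 165 ± 62.1 CPM (log2FC -1.02, SE 0.15, adjusted p = 1.29e-05) and RGS4 from 25.4 ± 6.45 to 10.2 ± 2.65 CPM (log2FC -1.31, SE 0.20, adjusted p = 4.42e-05). AREG (log2FC -0.92), CXCL8 (-0.79), LIF (-0.66), IL11 (-0.60) and HMGA2 (-0.63) fell by adjusted p alone. Without the replicate block 25 genes were regulated in this comparison, with 10 counts in every library 23, and without replicate 1 31.

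**Figure D4:**
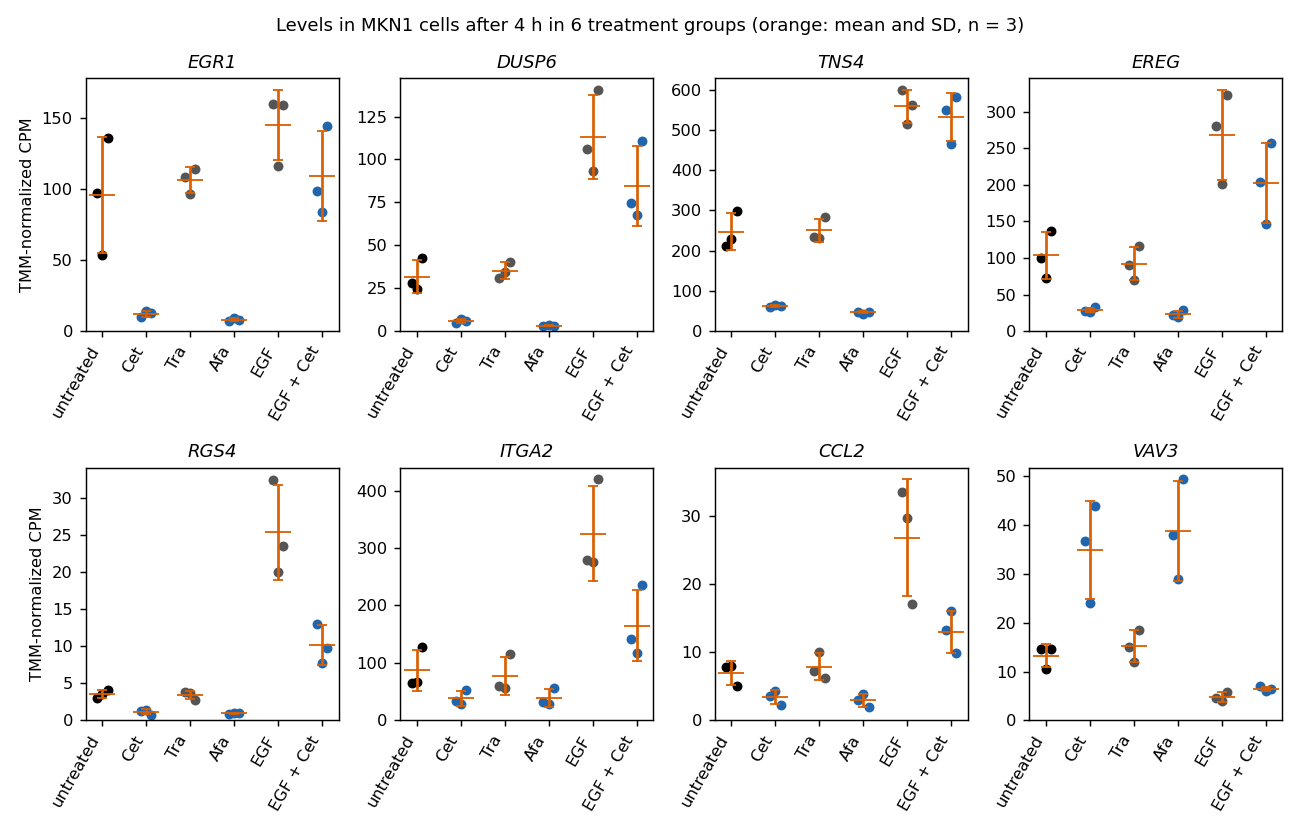
TMM-normalized CPM (linear y axes from 0) of 8 genes in MKN1 cells after 4 h without treatment and after cetuximab (Cet), trastuzumab (Tra), afatinib (Afa), EGF and EGF + cetuximab; points are libraries, the orange bar and whiskers the mean and SD of 3. DUSP6 stood at 31.6 ± 9.57 CPM untreated, 5.78 ± 1.14 with cetuximab, 113 ± 24.3 with EGF and 84.5 ± 23.2 with EGF + cetuximab, and the trastuzumab libraries overlap the untreated ones in all 8 genes.

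The difference between the effects of cetuximab with and without EGF was tested with an interaction contrast, which contains the 4 h comparison itself. It was called in 53 genes (0.267%), and in 36 of them the effect of cetuximab was more positive with EGF. For EGR1 the coded difference (with EGF minus without) was 2.5 (SE 0.39, adjusted p = 0.000254), for SPRY4 2.49 (SE 0.37, adjusted p = 0.000149), for DUSP6 2.0 (SE 0.38, adjusted p = 0.00212) and for TNS4 1.88 (SE 0.31, adjusted p = 0.000361). No difference was called for AREG (0.99, adjusted p = 0.0599), RGS4 (0.32), ITGA2 (0.13), PTHLH (0.27) or CCL2 (0.03). In SERPINB2, the plasminogen activator inhibitor 2, the fall was larger with EGF (log2FC -2.43 with EGF and -1.03 without; coded difference -1.4, adjusted p = 0.023). It stood at 6.5 ± 0.403 CPM under EGF but only 0.682 ± 0.0644 CPM in untreated cells, and lost its call without EGF under 5 alternatives, including the fit without replicate 3 (-0.93, adjusted p = 0.228). Without the replicate block the interaction was called in 10 genes, and in 21 without replicate 1 and 32 without replicate 3.

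After 24 h cetuximab treatment, in other libraries, 411 genes were regulated (2.07%), 309 higher (1.56%) and 102 lower (0.515%). Without the limit on the log2FC, 3118 genes were lower (15.7%) and 2899 higher (14.6%). Of the 73 genes lowered at 4 h, 53 were lower at 24 h by adjusted p (against 15.7% of all tested genes) and 32 were regulated, which is 43.8% of the 73 and 31.4% of the 102, while 3 passed in the other direction. Of the 43 raised genes, 19 were higher at 24 h by adjusted p (against 14.6%) and 7 were regulated, which is 16.3% of the 43 and 2.27% of the 309. EGR1 at 24 h was at 209 ± 86.5 CPM in untreated and at 25.1 ± 7.24 CPM in treated cells (log2FC -3.04, SE 0.29, adjusted p = 6.44e-09). The log2FC at 24 h was -2.74 for DUSP6, -2.56 for SPRY4, -2.38 for AREG, -2.21 for FOSL1 and -1.85 for TNS4, all regulated. BMF rose from 14.5 ± 7.74 to 37.9 ± 4.66 CPM (log2FC 1.45, SE 0.21, adjusted p = 4.7e-06), RNF144B by 1.15 on the log2 scale, and CCND1 fell by 1.0. The difference between both time points was tested with an interaction contrast that again contains the 4 h comparison, and 91 genes were called (0.459%), 74 with a more positive effect at 24 h. CXCL1 had a log2FC of -0.30 at 24 h, at levels of 1.07 ± 0.162 and 0.869 ± 0.106 CPM (difference 1.38, adjusted p = 0.0137). CCL2 (0.66) and NAV3 (0.67), both lower at 4 h, rose at 24 h by adjusted p, as did SLITRK6, which was measured on few reads. Without replicate 3, 170 genes were regulated at 24 h and 35 differed between the time points, and without the replicate block 264 and 11. With 10 counts required in every library, 141 genes were regulated at 24 h.

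**Figure D5:**
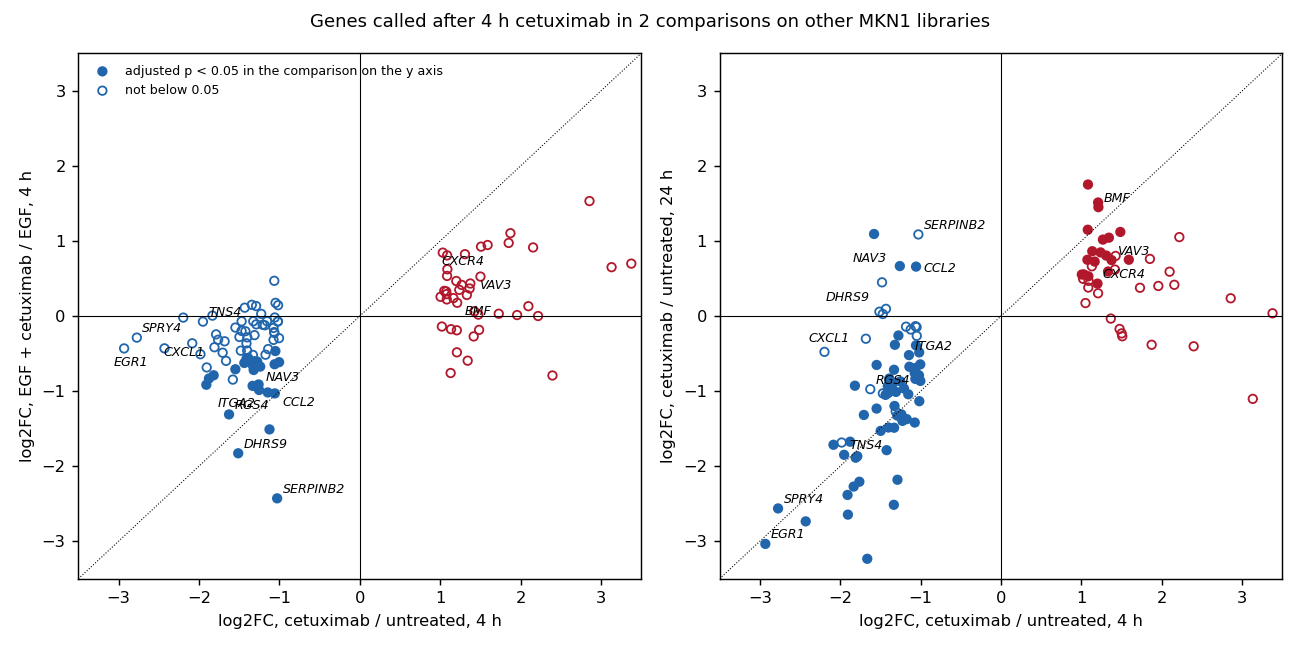
Log2FC of the genes called after 4 h cetuximab (x axis; blue lower, red higher) against their log2FC for EGF + cetuximab against EGF after 4 h (left y axis) and for cetuximab against untreated cells after 24 h (right y axis); filled points passed an adjusted p of 0.05 on the y axis, the dotted line marks equal values, and 1 gene with a log2FC above 3.5 lies outside the axes. On the left most blue points lie between the dotted line and 0 (EGR1 at -0.43, SPRY4 at -0.29), on the right EGR1 and SPRY4 lie close to it (EGR1 at -3.04, SPRY4 at -2.56).

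Trastuzumab, an antibody against ERBB2, and afatinib, an inhibitor of the ERBB kinases, were set beside cetuximab at the same time point; both comparisons share the cetuximab libraries with the comparison above. Cetuximab against trastuzumab gave 90 regulated genes (0.454%), 68 lower and 22 higher. After trastuzumab EGR1 was at 107 ± 9.14 CPM, SPRY4 at 55.3 ± 0.934, DUSP6 at 35.2 ± 4.91, AREG at 20.3 ± 8.14 and VAV3 at 15.2 ± 3.3 CPM, and the log2FC of cetuximab against trastuzumab was -3.12, -2.82, -2.6, -1.88 and 1.19, all called. Afatinib against cetuximab gave 0 regulated genes (0.0%). At an unadjusted p below 0.05 edgeR listed 634 genes, the smallest adjusted p was 0.272, and DESeq2 called 0 genes and listed 3 by adjusted p. The levels after afatinib were 7.98 ± 1.02 CPM for EGR1, 3.95 ± 0.395 for SPRY4, 3.06 ± 0.303 for DUSP6, 4.08 ± 0.992 for AREG and 38.7 ± 10.3 for VAV3. The log2FC of afatinib against cetuximab was -0.99 (SE 0.33) for SPRY4, -0.91 (SE 0.35) for DUSP6 and -0.41 (SE 0.24) for AREG, so that differences of about that size could not be told from 0 after adjustment over all genes, and missing the threshold does not show that both agents act alike.

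In Hs746T cells, 4 h cetuximab treatment gave 0 regulated genes among 21267 tested (0.0%). At an unadjusted p below 0.05 edgeR listed 1871 genes, the smallest adjusted p was 0.408, and DESeq2 called 3 genes. The genes that fell in MKN1 cells were expressed there in part. EGFR was at 270.4 ± 15 CPM in untreated and 252 ± 11.9 CPM in treated Hs746T cells, SPRY4 at 50.5 ± 5.09 and 48.1 ± 9.72, DUSP6 at 40.6 ± 3.74 and 42.7 ± 6.15, FOSL1 at 1277 ± 349 and 1377 ± 453 and MYC at 210.1 ± 6.8 and 212 ± 19.9 CPM. TNS4 (0.776 ± 0.467 CPM) and CXCR4 (0.0228 ± 0.0252 CPM) stood far lower in untreated Hs746T than in untreated MKN1 cells, CXCR4 below the level of 3 counts. EGR1 (5.55 ± 2.13 CPM), EREG (2.88 ± 0.715 CPM) and DUSP4 (10.4 ± 2.63 CPM) were also far lower there. RGS4 (109 ± 13 CPM), CXCL1 (19.4 ± 5.98 CPM), FOSL1 and MYC were higher there, and AREG (7.3 ± 0.284 CPM) and SGK1 (66.4 ± 24.3 CPM) were lower. The difference in effect between the cell lines, which contains the MKN1 comparison, was called in 100 genes (0.47%), 62 of them with a more negative effect in MKN1 cells. It was -2.7 (SE 0.29, adjusted p = 4.71e-10) for SPRY4, -2.51 (SE 0.29, adjusted p = 4.89e-09) for DUSP6 and -1.86 (SE 0.26, adjusted p = 7.16e-07) for FOSL1. Without the replicate block 25 genes were called, without replicate 3 59.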

How the data were processed

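RNA of MKN1 cells was sequenced as polyadenylated, directional paired-end libraries, and the authors deposited 1 file of raw read counts per library, with Ensembl identifiers in its rows. The submitters' processing notes name Trim Galore, STAR and hg38. The counting tool, its strand setting and the annotation are not given in the sources used here. Of 65217 identifiers, 56813 were matched to symbols and GRCh38 coordinates in GENCODE release 29. Counts were used as deposited.

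Genes were kept by edgeR's filterByExpr (minimum count 10, minimum total 15), which left 19815 of them, and libraries were scaled by TMM. The quasi-likelihood test of edgeR 4.0.16 (R 4.3.3) was fitted to all 42 MKN1 libraries with a separate mean for every treatment at every time point, and the replicate number was a block within each time point. For contrasts with Hs746T, 84 libraries and 21267 genes were fitted together. P-values were adjusted by Benjamini-Hochberg over all genes tested, and calls required an adjusted p below 0.05 together with a log2FC above 1 or below -1. A prior count of 2 entered the log2 CPM values. Standard errors came from the fitted log2FC and its test statistic.

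The study's labels give each group replicate numbers 1 to 3. The numbers were taken as pairs by the definition of the comparison. Across genes, deviations from the group means correlated between libraries with the same number (r = 0.314, 0.323 and 0.265 for cetuximab and untreated cells at 4 h). For EGF and EGF + cetuximab r was 0.327 to 0.389, and at 24 h 0.183 to 0.191. Between other numbers at 4 h r was -0.212 to -0.0789. Centring each group of 3 on its mean lowers these values when the same-numbered ones are positive. No 2 of the 6 libraries held identical values.

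Named genes are the ERBB receptors, members of the gene lists, and the 15 genes with the largest fall and up to 15 with the largest rise among called genes with a mean log2 CPM above 1 and 1 direction in 3 pairs. Other called genes are named with their log2FC, and ENC1, AMIGO2, TMEM200A, PHLDB2, FOXL1, GPR3, DHRS9, JAG1, CYP26B1, TLR4, MALT1, CHAT, CCR7, NWD1, FGF19, EDN2, SEMA6D, PCDH18, SLITRK6, AC004585.1, AL445430.2, RPSAP52 and SPRY4-AS1 were chosen after their values were seen. The comparison, the lists and the tests were chosen with earlier results of these data known. Alternatives were no block, a common block, library size scaling, other filters, DESeq2 1.42.0, fewer groups in the fit, and leaving out each replicate. Some genes are not reported here.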

Additional observations from a re-analysis of the deposited data

Results flagged for a closer look

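The effects of 4 h cetuximab treatment in MKN1 cells were compared with its effects under 3 other conditions by tests of the difference itself, and these differences are listed here as values. Each contains the 4 h comparison without EGF. Groups of 3 libraries were too small for a test of single outlying libraries.

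With EGF minus without EGF, 53 genes were called. A positive difference stands for a smaller fall with EGF. The log2 difference was 2.5 for EGR1, 2.49 for SPRY4, 2.0 for DUSP6, 1.88 for TNS4, 1.84 for AC018629.1 and 1.72 for PHLDA1. It was 1.54 for DUSP4, 1.45 for FOSL1, 1.39 for EREG, 1.34 for CXCL1, 1.22 for SGK1 and 1.03 for CXCL8.

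Between 24 h and 4 h, 91 genes differed. Of the genes with the largest falls at 4 h, CXCL1 was the one called here, with a log2 difference of 1.38.

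Between MKN1 and Hs746T cells (MKN1 minus Hs746T), 100 genes differed. The log2 difference was -2.85 for EGR1, -2.7 for SPRY4, -2.51 for DUSP6, -2.16 for TNS4, -2.02 for PHLDA1, -1.99 for AREG and -1.91 for CXCL8. It was -1.86 for FOSL1, -1.85 for EREG and for SGK1, -1.82 for CXCL1, -1.7 for DUSP4 and -1.69 for RGS4. Of these genes, EGR1, TNS4, EREG and DUSP4 had far lower levels in untreated Hs746T than in untreated MKN1 cells. Levels of AREG and SGK1 were also lower there, and those of RGS4, CXCL1 and FOSL1 were higher. For the rises, the log2 difference was 1.39 for VAV3 and 1.34 for RNF144B.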

How the results depend on the processing

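For 4 h cetuximab against untreated MKN1 cells, the count of called genes moved from 116 to 66 without the replicate block, to 67 with at least 10 counts in every library and to between 65 and 121 when 1 replicate was left out, the lowest without replicate 3. Of the 66 genes, 65 were among the 116. Scaled by library size alone 57 genes were lower and 60 higher, and the median log2FC of all genes was then 0.08. Without the block the other counts were 25 for EGF + cetuximab against EGF, 264 at 24 h, 11 for 24 h minus 4 h, 10 for the difference with EGF and 25 for MKN1 minus Hs746T. Without the block 51 of the 116 calls were lost. Among the 43 named genes followed under the alternatives, these were ITGA2, ANKRD1, CCL2, SPRY1, SPRY2, BMF, EGR2 and SERPINB2. Those 43 do not include every called gene named in the text, so other named calls may also depend on the pairing. With at least 10 counts in every library they were 23, 141 at 24 h and 64 for MKN1 minus Hs746T. With the compared groups alone, 37 genes differed between 24 h and 4 h and 1 between afatinib and cetuximab. DESeq2 called 3 genes in Hs746T cells. Leaving out 1 replicate gave 31 to 62 genes for EGF + cetuximab against EGF, 170 to 547 at 24 h, 35 to 124 for 24 h minus 4 h, 21 to 43 for the difference with EGF, 69 to 97 for cetuximab against trastuzumab, 0 to 2 for afatinib against cetuximab, 0 to 0 in Hs746T cells and 59 to 98 for MKN1 minus Hs746T. In 43 named genes, 430 of 469 values kept the direction and the call, 39 lost the call and 0 reversed. The cause of these changes was not tested. The 32 rises and 12 falls with fewer than 50 counts in every library rest on the least precise values.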
